A study of Mus musculus with 6 samples.

Results

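The 10 genes described here belong to the lining of blood vessels and to the barrier that vessels form in nervous tissue, and were compared between dorsal root ganglia (DRG) and spinal cord (SC) of adult mice. They were the adhesion genes Pecam1, Esam and Cdh5, the VEGF receptor genes Flt1 and Kdr, the tight junction gene Ocln and the transporter genes Slc2a1, Slco1c1, Abcb1a and Abcg2. All probe sets that the platform annotation assigns to 1 of these genes and to no other were used, which gave 18 probe sets for the 10 genes, out of 34939 single-gene probe sets for 18192 genes. A probe set is a group of short oligonucleotides on the array that together report 1 transcript or several of a gene.

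RNA came from male C57BL/6J mice aged 3 months, and 3 arrays were hybridised for each tissue. Each array carried a pool of 4 mice, and the 3 pools of a tissue were independent of each other per the design text. Left and right lumbar DRG or lumbar SC were pooled, and the labels name no treatment and no altered allele in either group. The comparison asks how the expression of genes differs between a ganglion outside the central nervous system and the cord inside it. In bulk tissue, fewer cells of a type and less RNA per cell cannot be told apart.

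Endothelial cells line all blood vessels and are held together by adherens and tight junctions. In brain and spinal cord, vessels are sealed by continuous tight junctions, take up nutrients through dedicated carriers and return many lipophilic compounds to the blood through ATP-driven efflux pumps. Vessels of the ganglion are known to be more permeable than those of the cord, and the perineurium forms a further barrier around peripheral nerve.

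The array signals of a tissue resembled each other, with Pearson correlations of log2 signals over all probe sets of 0.966 to 0.970 among DRG arrays, 0.966 to 0.969 among SC arrays and 0.891 to 0.898 between the tissues. Differences are DRG minus SC on log2(signal + 16), so that negative values are higher in SC, and a call means an adjusted p under 0.05 by limma over 45031 probe sets. The median gene differed by 0.18 on the deposited scaling, by 0.04 once all arrays were given equal quantiles (quantile-normalized values) and by -0.10 when the array factors inside the deposited ratios were undone (unscaled values), so small differences have no settled direction. Dim probe sets were set against the 95th percentile of the signals of genes not expected in either tissue, which ranged from 132 to 196 over the 6 arrays. Each array had its own level, 132 to 164 in DRG and 176 to 196 in SC. The same signal can therefore pass in DRG and fail in SC, and counts of arrays above the level are no test of a tissue difference.

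The 10 genes did not share a direction. With each gene represented by its brightest probe set, 3 of the 10 genes were higher in DRG (Abcg2, Esam and Cdh5), 3 were higher in SC (Slco1c1, Slc2a1 and Flt1) and 4 did not pass the test (Pecam1, Kdr, Ocln and Abcb1a). Over all 18192 genes, 41.5% were called, 31.8% higher in DRG and 9.70% higher in SC. Of the 18 probe sets, 3 were called higher in DRG and 6 higher in SC, where 26.4% and 10.7% of all single-gene probe sets were called (37.2% in either direction), and 10 of the 18 had no overlap between tissues, against 48.1% of all. The median difference of the 10 genes was 0.11, or 0.10 on quantile-normalized and -0.21 on unscaled values. On quantile-normalized values 2 of the 10 genes were called toward DRG and 3 toward SC, as Esam was not called, and over all genes 36.5% were called, 20.5% toward DRG and 16% toward SC. On unscaled values 1 gene was called toward DRG and 4 toward SC, as Esam and Cdh5 were not called and Kdr was, and over all genes 39.0% were called, 19.3% toward DRG and 19.7% toward SC. Of the 18 probe sets, 2 and 6 were called toward DRG and SC on quantile-normalized values (17.4% and 16.1% of all probe sets, 33.5% together), and 1 and 8 on unscaled values (15.8% and 21.3%, 37.1% together). Abcg2, Slco1c1, Slc2a1 and Flt1 kept direction and call on all 3 scalings. The arrays of the tissues did not overlap for 6 of the 10 genes, as for 51.7% of all genes.

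**Figure D1:**
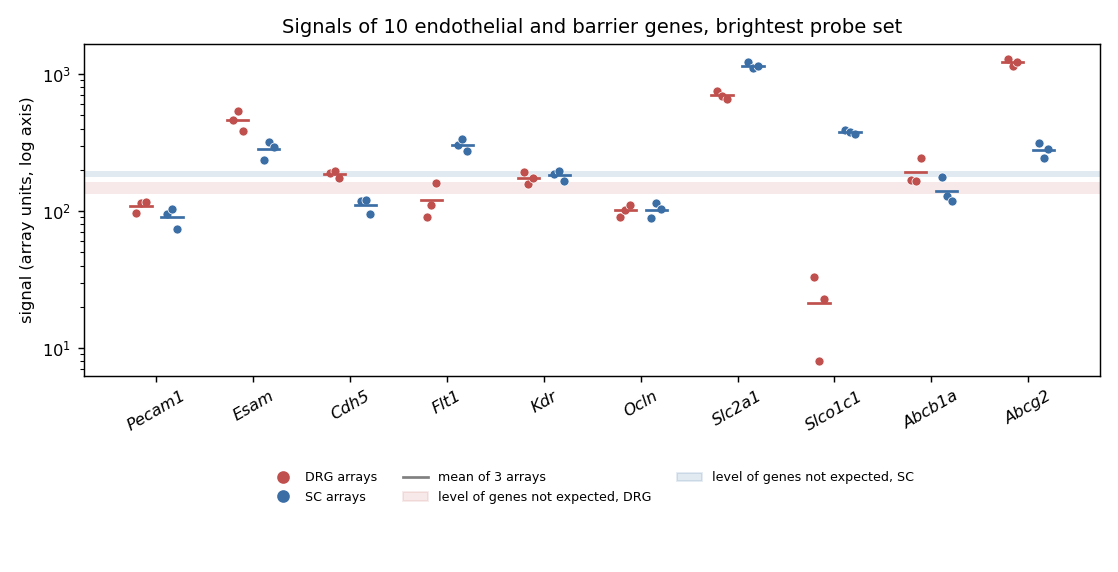
Signal of the brightest probe set of each of the 10 genes on every array (log axis), with a bar for the mean of the 3 arrays of a tissue and shaded bands for the range of the level of genes not expected in each tissue. Abcg2 lies between 1135 and 1284 in DRG and between 242.6 and 312.5 in SC, Slco1c1 is under the band in DRG and above it in SC, and Pecam1 and Ocln are under the bands on all 6 arrays.

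Of the 3 adhesion genes, Pecam1 was under the level of genes not expected on all arrays, Cdh5 was under it in SC and Esam was above it throughout. Pecam1, the CD31 antigen of endothelium, platelets and leukocytes, had signals of 96.2, 114.3 and 116.9 in DRG, against 94.4, 102.8 and 74.3 in SC on its single probe set. The tissues overlapped, and all 6 values were under the level of genes not expected. The difference was 0.24 ± 0.20 (SE, 3 arrays per tissue; limma adjusted p = 0.428), and it was -0.08 on unscaled values. These arrays thus give no measured endothelial level from Pecam1 in either tissue.

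Esam, an immunoglobulin-like adhesion molecule of endothelial cells and platelets, was measured above the level in both tissues. Its signals were 459.3, 535.4 and 385.8 in DRG, against 236.8, 319.1 and 292.1 in SC, with every DRG array above every SC array. The fold was 1.63 toward DRG, with a difference of 0.67 ± 0.14 (SE; limma adjusted p = 0.00564). The difference was 0.41 on quantile-normalized values (limma adjusted p = 0.0826) and 0.31 on unscaled values (0.159), which ended the call, and over all alternatives the adjusted p ran from 0.00212 to 0.159.

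Cdh5 encodes VE-cadherin, the cadherin of endothelial adherens junctions, and was measured by 2 probe sets that disagreed. On 1433956_at the signals were 190.2, 196.0 and 175.2 in DRG, against 117.8, 120.5 and 94.4 in SC. The tissues did not overlap, and the values were above the level of genes not expected on all 3 DRG arrays and on none of the SC arrays. The difference was 0.68 ± 0.15 (SE; limma adjusted p = 0.00707). It was 0.62 on quantile-normalized values (limma adjusted p = 0.0158) and lost its call on unscaled values, at 0.35 (0.12, the highest over its alternatives, from 0.00261). On 1422047_at the means were 90.0 ± 21.1 in DRG and 88.0 ± 5.60 in SC (SD, n = 3 each), below the level on all arrays, with a difference of 0.01 (limma adjusted p = 0.981). With the mean of both probe sets, the gene's difference was 0.35 and was not called (limma adjusted p = 0.0658).

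The VEGF receptor genes did not differ alike. Flt1 encodes VEGF receptor 1, which binds VEGF tightly and also exists in a soluble form, and Kdr encodes VEGF receptor 2, the main signalling receptor of endothelial cells. On the brightest Flt1 probe set, 1419300_at, the signals were 89.8, 110.5 and 159.7 in DRG, against 303.3, 333.4 and 274.3 in SC. All 3 SC arrays were above the level of genes not expected, against 1 of 3 DRG arrays, and the tissues did not overlap. The fold was 2.60 toward SC, with a difference of -1.26 ± 0.19 (SE; limma adjusted p = 0.000644), and the difference was -1.41 on quantile-normalized values and -1.60 on unscaled values.

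The other Flt1 probe sets pointed the same way, with smaller or dimmer signals. On 1454037_a_at the signals were 41.7, 80.7 and 52.7 in DRG, against 150.1, 142.6 and 133.5 in SC, all under the level, and the difference was -1.12 (limma adjusted p = 0.00463). On 1451756_at and 1440926_at the tissues overlapped, and the differences of -0.38 and -0.24 were not called (limma adjusted p = 0.216 and 0.47). The former was called on unscaled values, at -0.72 (limma adjusted p = 0.0244, the lowest over its alternatives, up to 0.559).

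Kdr lay near the level of genes not expected in both tissues. Its signals were 193.1, 156.5 and 174.2 in DRG, against 186.9, 194.5 and 165.9 in SC, with overlap. The difference was -0.06 ± 0.14 (SE; limma adjusted p = 0.806), -0.17 on quantile-normalized values and -0.40 on unscaled values (limma adjusted p = 0.0419, the lowest over its alternatives, up to 0.971). The log2 ratio of Kdr to Flt1 within an array, which a single factor per array leaves as it is, was 1.10, 0.50 and 0.13 in DRG, against -0.70, -0.78 and -0.73 in SC. The DRG arrays were above the SC arrays in this ratio without overlap, but Flt1 was under the level on 2 DRG arrays and Kdr on 1 DRG and 2 SC arrays, so its size is not a measured one.

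Ocln, the tight junction protein occludin, was not detected above the level of genes not expected on any array. On its brighter probe set, the signals were 90.3, 101.9 and 111.6 in DRG, against 89.0, 114.7 and 103.6 in SC, and the difference was -0.01 ± 0.19 (SE; limma adjusted p = 0.973). On 1448873_at the means were 54.1 ± 25.6 and 74.4 ± 20.4 (SD, n = 3 each), with a difference of -0.42 (limma adjusted p = 0.424). Differences in this gene could not be measured at these signals.

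**Figure D2:**
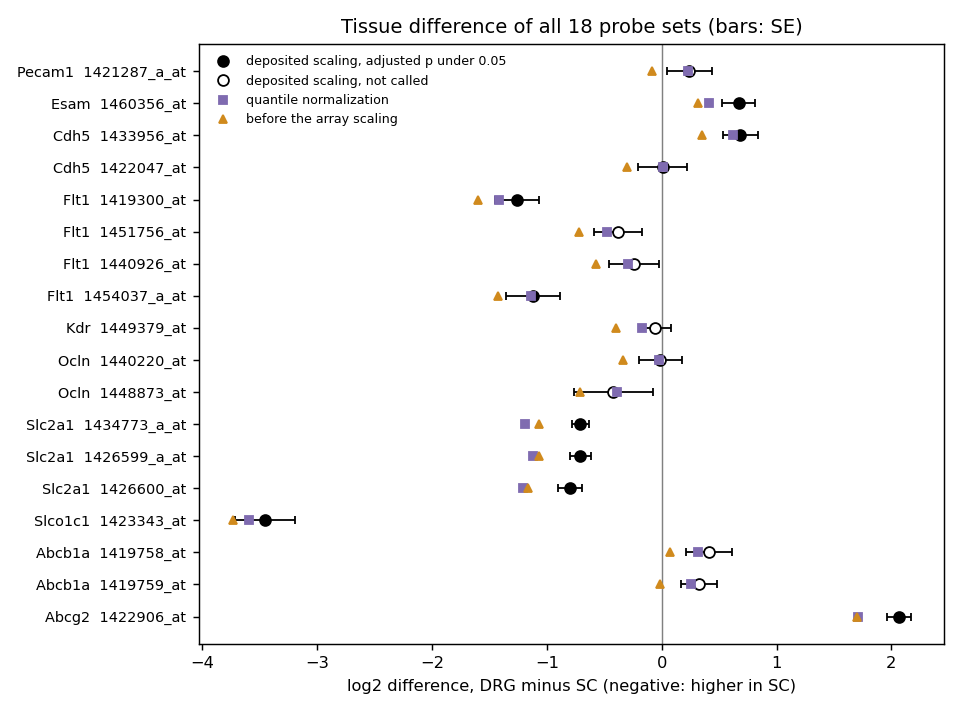
Log2 difference DRG minus SC of all 18 probe sets, with SE bars, on the deposited scaling (circles, filled where called), quantile-normalized (squares) and unscaled (triangles). The 3 probe sets of Slc2a1 and the 4 of Flt1 lie left of 0 on all 3 scalings, and Abcg2 lies between 1.70 and 2.06.

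Of the 4 transporters, Slc2a1 and Slco1c1 were higher in SC, Abcg2 was higher in DRG and Abcb1a was not called. Slc2a1 encodes GLUT1, the glucose carrier of barrier endothelium, which is also made by astrocytes and perineurial cells. Slco1c1 encodes an organic anion carrier that takes up thyroxine and is found in brain capillaries and astrocytes of rodents. Abcb1a (P-glycoprotein) and Abcg2 (breast cancer resistance protein) are ATP-driven efflux pumps of the luminal vessel membrane, and Abcg2 also occurs in stem and progenitor cells of several tissues.

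The 250 bases before a RefSeq start (GRCm38.p6) are shown for the 3 transporters called, since they differed in opposite directions. Capitals mark matches on either strand to the ETS core GGAA, the TCF/LEF motif CTTTGA, the GC box GGGCGG and the hypoxia element ACGTG. For Abcg2, which has 3 starts in the table, the start with the most CpG pairs is shown, and the array does not tell which start was used.
Slc2a1, chr4:119108495-119108744, plus strand: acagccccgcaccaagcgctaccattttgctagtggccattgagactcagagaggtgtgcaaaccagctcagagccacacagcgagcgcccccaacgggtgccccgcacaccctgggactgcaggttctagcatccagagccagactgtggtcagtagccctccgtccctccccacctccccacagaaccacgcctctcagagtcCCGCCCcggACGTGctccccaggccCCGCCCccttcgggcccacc
Slco1c1, chr6:141524104-141524353, plus strand: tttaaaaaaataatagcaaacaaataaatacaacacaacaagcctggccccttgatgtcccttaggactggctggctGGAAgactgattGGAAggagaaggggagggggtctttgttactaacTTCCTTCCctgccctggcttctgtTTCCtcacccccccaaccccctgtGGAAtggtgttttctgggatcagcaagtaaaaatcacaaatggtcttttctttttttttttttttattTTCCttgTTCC
Abcg2, chr6:58640296-58640545, plus strand: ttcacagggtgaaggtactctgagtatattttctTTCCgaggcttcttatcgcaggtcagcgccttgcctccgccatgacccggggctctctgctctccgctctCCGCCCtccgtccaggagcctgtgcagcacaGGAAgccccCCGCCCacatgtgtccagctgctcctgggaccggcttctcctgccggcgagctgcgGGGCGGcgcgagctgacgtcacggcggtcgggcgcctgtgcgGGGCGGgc

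Slc2a1 had 13 CpG pairs, 66.4% G and C, 2 GC boxes and 1 hypoxia element. Abcg2 had 23 CpG pairs, 67.6% G and C and 4 GC boxes at the start shown, which was picked for its CpG pairs, and its other starts had 3 CpG pairs with 0 GC boxes and 10 CpG pairs with 2 GC boxes. Slco1c1 had 0 CpG pairs, 42.8% G and C, 0 GC boxes and 8 ETS cores. Over 32851 promoter windows of this length, the median was 6 CpG pairs, and a GC box was held by 32.7%, a hypoxia element by 16.6%, a TCF/LEF motif by 13.8% and an ETS core by 93.4%, which makes the last uninformative alone. The longer ETS form CCGGAAGT, held by 2.9% of windows, was in none of the 10 windows of the 7 members in the table (Abcb1a, Abcg2, Flt1, Kdr, Ocln, Slc2a1 and Slco1c1). These matches describe the letters only.

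Slc2a1 was higher in SC on all 3 of its probe sets. On the brightest, 1434773_a_at, the signals were 748.2, 690.9 and 660.7 in DRG, against 1220, 1098 and 1138 in SC. Every SC array was above every DRG array, and all values were well above the level of genes not expected. The fold was 1.65, with a difference of -0.71 ± 0.08 (SE; limma adjusted p = 8.64e-05). The other probe sets gave 1.66-fold and 1.77-fold, with adjusted p of 0.000224 and 0.000332 by limma. The difference of the brightest probe set was -1.19 on quantile-normalized values and -1.07 on unscaled values, over 1.5 times the value on the deposited scaling.

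Slco1c1 passed the level of genes not expected on the SC arrays alone. Its signals were 33.3, 8.1 and 22.8 in DRG, against 388.0, 378.9 and 364.7 in SC. In DRG all arrays were far under that level, so the fold is given as a lower bound of at least 2.59 toward SC. The fitted difference, which is no measured size since DRG is under the level, was -3.45 ± 0.26 (SE; limma adjusted p = 7.85e-06), or -3.59 on quantile-normalized values and -3.74 on unscaled values.

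Abcg2 differed the other way. Its signals were 1284, 1135 and 1224 in DRG, against 312.5, 242.6 and 282.4 in SC, above the level of genes not expected on all 6 arrays. The lowest DRG array was more than 3 times as bright as any SC array, and the fold was 4.37 toward DRG. The difference was 2.06 ± 0.10 (SE; limma adjusted p = 5.22e-07), 1.71 on quantile-normalized values and 1.70 on unscaled values. It was measured by a single probe set.

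Abcb1a was not called on either probe set. On 1419758_at the signals were 168.4, 166.6 and 242.4 in DRG, against 176.7, 127.8 and 117.7 in SC, with overlap. The values were above the level of genes not expected on all 3 DRG arrays and on none of the SC arrays. That level was higher on SC arrays, and the SC signal of 176.7 was under its level of 192.7 though brighter than the DRG signals of 168.4 and 166.6. The difference was 0.41 ± 0.20 (SE; limma adjusted p = 0.16), and 0.07 on unscaled values. On 1419759_at the tissues did not overlap, but the difference of 0.32 was not called either (limma adjusted p = 0.16) and was -0.01 on unscaled values. Abcb1a has a close paralogue, Abcb1b, and the files do not show whether its transcripts reach these probe sets.

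Ratios between members on the same array are not changed by a single factor per array, as in the deposited scaling, but quantile normalization can change them. The log2 ratio of Abcg2 to Slc2a1 was 0.78, 0.72 and 0.89 in DRG, against -1.96, -2.18 and -2.01 in SC, a difference of 2.85 without overlap. Both genes were above the level of genes not expected on all 6 arrays, and the tissues differed in this ratio by 2.91 after the fit to quantile-normalized values. Abcg2 and Slc2a1 thus did not move by a common factor. Against Kdr, which was near the level, the ratio of Abcg2 differed by 2.19 and that of Slc2a1 by -0.65 (DRG minus SC), without overlap, and the difference of Slc2a1 against Kdr was -1.02 on quantile-normalized values. The ratio of Slco1c1 to Kdr was lower on every DRG array than on every SC array, with no measured size in DRG. The ratio of Abcb1a to Kdr overlapped between the tissues. The ratio of Cdh5 to Flt1 was higher on every DRG array, but Cdh5 was under the level on all SC arrays and Flt1 on 2 of 3 DRG arrays, so no size is given. A ratio of 2 probe sets compares the tissues and says nothing on which gene is more abundant.

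**Figure D3:**
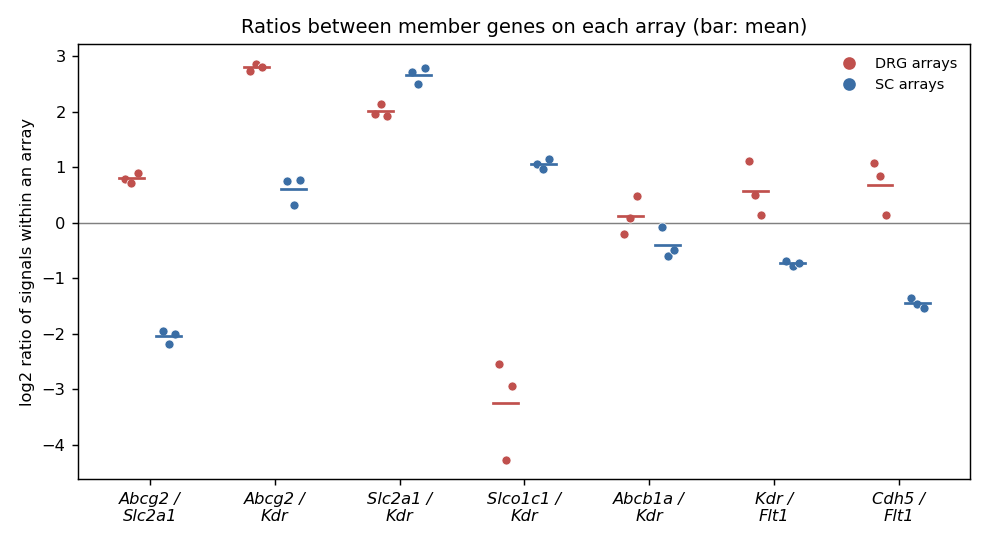
Log2 ratio of the signals of 2 member genes on each array (points; bar: mean of 3 arrays), in DRG and SC. The ratio of Abcg2 to Slc2a1 lies between 0.72 and 0.89 in DRG and between -2.18 and -1.96 in SC, and the ratio of Abcb1a to Kdr overlaps between the tissues. Ratios with Slco1c1, Cdh5, Flt1 or Kdr involve signals near or under the level of genes not expected.

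Genes with patterns nearest to 2 members were looked up by the root mean square distance of log2 values, centred per gene, over the 6 arrays. Nearest to Cdh5 were Sdhaf2, at a distance of 0.03, Vps35l, at 0.04, and Ptpre, at 0.04, with differences of 0.70, 0.68 and 0.71. Nearest to Slco1c1 were Kcnd2, at 0.16, Calb2, at 0.17, and Psd2, at 0.21, with differences of -3.38, -3.58 and -3.65. With 6 arrays of 2 tissues, genes with a like tissue difference are near by construction.

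Other genes of vessels and of neighbouring cells were read from 12 lists with 126 distinct measured genes, of which 69 were called. Over all 18192 genes on the deposited scaling, 41.5% were called, 31.8% higher in DRG and 9.70% higher in SC. Calls over all genes thus leaned toward DRG, so such a lean in a list is not by itself particular to its genes. Shares on the other scalings are given above, and no list was tested against them. Of 22 other endothelial genes, 7 passed toward DRG and 1 toward SC. The median difference was 0.07, or 0.02 on quantile-normalized and -0.26 on unscaled values. The split was 4 against 3 on quantile-normalized values and 2 against 3 on unscaled values. Cd34, an antigen of endothelial and progenitor cells, exceeded its SC signal at least 2.69-fold in DRG, and Mcam, an adhesion molecule of endothelial and mural cells, was 3.64-fold higher (limma adjusted p = 1.27e-05 and 9.47e-06). S1pr1, the receptor of sphingosine phosphate in endothelium and astrocytes, was 2.19-fold higher in SC (limma adjusted p = 2.13e-05). The other 5 calls toward DRG, Emcn, Egfl7, Ramp2, Vwf and Cd93, had differences of 0.42 to 0.78, and all 5 lost their call on unscaled values, Emcn, Egfl7 and Ramp2 also on quantile-normalized ones. On the deposited scaling, the summed signal of the list was 5612 to 6084 in DRG and 4233 to 4474 in SC. Bright genes add most to it, among them Mcam, with means of 1259 in DRG and 348.2 in SC. Sums of this and the later lists were taken on the deposited scaling alone, so how far they depend on scaling was not tested. Whether the endothelial sum bears on the differences of Esam and Cdh5 was not tested either.

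Junction and vesicle genes of the barrier split evenly, 3 against 3 of 11. The median difference was 0.22, also on quantile-normalized values, and -0.07 on unscaled values. Toward SC were Mfsd2a, the lipid carrier that restrains transcytosis, at 1.72-fold, Cldn5, the main claudin of barrier vessels, at 1.53-fold, and Tjp1, a junction scaffold, at -0.35. With log2 deposited ratios in place of signals, Cldn5 was not called (limma adjusted p = 0.0527), and its difference of -0.59 was -0.90 on quantile-normalized and -0.95 on unscaled values. The difference of Tjp1 was -0.82 on quantile-normalized and -0.71 on unscaled values. With log2 deposited ratios only 1 gene of the list was called toward SC, Mfsd2a (limma adjusted p = 0.0233), so Tjp1 was not called there either. Toward DRG were Cav1, the caveolar coat protein, at 3.98-fold, Plvap, the diaphragm protein of fenestrated vessels, at least 1.07-fold, and Marveld2, which was under the level of genes not expected on all arrays. Cav1 kept its call on all 3 scalings, with 1.94, 1.56 and 1.58, while Plvap and Marveld2 lost theirs on unscaled values (limma adjusted p = 0.135 and 0.112). Leaving out DRG replicate 1, DRG replicate 3, SC replicate 2 or SC replicate 3 also ended the call of Plvap, and so did the logarithm of the deposited ratio, with adjusted p between 0.0557 and 0.0928 by limma. The call of Marveld2 ended without any of DRG replicates 1, 2 and 3 and of SC replicates 1 and 2, with limma adjusted p between 0.0659 and 0.147, and also with the replicate block (0.0651), a pseudocount of 1 (0.0623) and the deposited ratio (0.1). The split was 3 against 4 on quantile-normalized values and 1 against 4 on unscaled values.

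Further barrier transporters and enzymes numbered 15, of which 6 passed toward DRG and 3 toward SC. The median difference was 0.09, or -0.17 on quantile-normalized and -0.20 on unscaled values. Abcc4, an efflux pump, was up at least 1.97-fold in DRG, as was Slc7a1, the carrier of cationic amino acids, by 2.61-fold, with a difference of 1.36 that was 0.90 on quantile-normalized values. Tfrc, the transferrin receptor, was higher in DRG at 0.69, Slc16a1, a monocarboxylate carrier, at 0.46, Alpl at 0.44 and Slc3a2 at 0.36. On quantile-normalized values these 4 were not called, and on unscaled values only Tfrc was, at 0.32 (limma adjusted p = 0.012). Slc38a5, a glutamine carrier, was higher in SC at -2.05 but was under the level of genes not expected on all arrays, Lrp1, a lipoprotein receptor, at -1.24 and Slco1a4, an organic anion carrier, at -0.59 (-0.99 on quantile-normalized and -0.95 on unscaled values). The split was 2 against 3 on quantile-normalized values and 3 against 6 on unscaled values.

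Of 13 genes of the Wnt and transcription programme of barrier vessels, 5 passed toward DRG and 0 toward SC. The median difference was 0.26, or 0.02 on quantile-normalized and -0.04 on unscaled values. The split was 4 against 3 on quantile-normalized values and again on unscaled values. The 3 toward SC were Foxq1, Apcdd1 and Tspan12 on both, and none of them was called on the deposited scaling. Their differences were -0.717, -0.512 and -0.467 on quantile-normalized values (limma adjusted p = 0.0452, 0.00863 and 0.0375). They were -1.001, -0.644 and -0.649 on unscaled values (limma adjusted p = 0.00884, 0.00246 and 0.00691). Foxq1 was under the level of genes not expected on all arrays. Ndp, which encodes the Wnt-like ligand norrin, and Adgra2, a receptor that assists Wnt signalling in brain endothelium, differed by 1.05 and 1.02 while above the level on only 1 and 2 DRG arrays, and Ctnnb1, which encodes beta-catenin, was 1.94-fold higher in DRG, with a difference of 0.95 that was 0.36 on quantile-normalized and 0.58 on unscaled values. Of 11 genes of VEGF and angiopoietin signalling, 5 passed toward DRG and 2 toward SC. The split was 5 against 2 on quantile-normalized values and 5 against 3 on unscaled values. The median difference was 0.04, or -0.10 on quantile-normalized and -0.32 on unscaled values. Plxnd1, a semaphorin receptor of vessels, was up at least 4.35-fold in DRG, Angpt2 at least 1.28-fold and Nrp1, a co-receptor of VEGF that neurons also make, 3.67-fold. Vegfb was 1.53-fold higher in SC, with a difference of -0.61 that was -1.11 on quantile-normalized and -0.97 on unscaled values, and Pgf was called at -1.06 under the level of genes not expected. Vegfa, the principal ligand of Kdr and Flt1, differed by 0.04 (limma adjusted p = 0.876).

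Of 14 genes of mural cells, the pericytes and smooth muscle cells that wrap vessels, 6 passed toward DRG and 3 toward SC. The median difference was -0.08, or -0.11 on quantile-normalized and -0.39 on unscaled values. The split was 6 against 2 on quantile-normalized values and 6 against 4 on unscaled values. Tagln, of smooth muscle, was up at least 1.34-fold in DRG, and Anpep differed by 1.59, above the level on 2 DRG arrays and 0 SC arrays. Pericyte genes went both ways. Toward DRG, Pdgfrb was up at least 1.47-fold and Rgs5 1.72-fold. The Rgs5 difference of 0.78 was 0.18 on quantile-normalized and 0.41 on unscaled values. Toward SC, Abcc9 was 1.85-fold higher, with 2 of 3 DRG arrays above the level, and Higd1b was called at -0.72 under the level on all arrays. Notch3, also a mural gene, was 1.68-fold higher in SC, and Cspg4 and Kcnj8 were not called. The call of Higd1b was lost on quantile-normalized values, with the replicate block and without any single array (limma adjusted p from 0.0579 to 0.148 in these). The summed signal of the mural list was 6284 to 6679 in DRG and 3911 to 4135 in SC. Mcam is on this list and on that of endothelial genes.

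Genes of cells around the vessels moved too, and their part in the differences of the 10 genes was not tested. Of 7 perineurial genes, 4 passed toward DRG and 0 toward SC. They were Cldn1, at least 2.10-fold, Moxd1, at least 5.14-fold, and Lypd2 and Cldn19, both under the level on all arrays. Cldn19 differed by 0.85 and lost its call on unscaled values, at 0.54 (limma adjusted p = 0.104). The split was 4 against 0 on quantile-normalized values and 3 against 0 on unscaled values. The list's summed signal was 2619 to 2745 in DRG and 1058 to 1208 in SC. Of 6 genes of astrocyte endfeet, which ensheathe central vessels, 5 passed toward SC and 1 toward DRG, with sums from 20424 to 22867 in SC against 2419 to 2777 in DRG. Toward SC, Gfap was up by at least 45.0-fold, Slc1a2 by at least 44.3-fold and Aqp4, the endfoot water channel, by 22.7-fold against DRG signals of 149.7, 134.8 and 141.6, of which only the first was above the level. Dag1 was 1.95-fold higher in DRG, with a difference of 0.95 that was 0.47 on quantile-normalized and 0.58 on unscaled values. Of the perineurial genes, Itgb4, Tenm2 and Slc22a6 were not called, with differences of 0.07, 0.25 and 0.42.

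Blood and immune cells were read in the same way. Of 7 genes of red cells and platelets, 2 were higher in DRG, Pf4 at least 1.82-fold and Alas2 at 1.73 with 1 DRG array above the level, while the haemoglobin gene Hba-a1 was under the level of genes not expected on all arrays. The list had summed signals of 741 to 899 in DRG and 387 to 555 in SC. Of 8 genes of macrophages and microglia, 5 passed toward SC and 1 toward DRG, with sums from 1695 to 1825 in DRG against 2500 to 2792 in SC. Itgam was called at -2.18 under the level of genes not expected, P2ry12, of microglia, was up at least 1.89-fold in SC, and Mrc1, of perivascular and other resident macrophages, at least 1.32-fold higher in DRG. Of 5 lymphatic genes, 2 were higher in each tissue, with Pdpn 2.97-fold toward DRG and Reln 1.53-fold toward SC, both also made by cells other than lymphatic ones. The defining lymphatic genes Prox1 and Lyve1 were called at -1.23 and 0.94, both under the level on all arrays, and Lyve1 lost its call on unscaled values (limma adjusted p = 0.0771) and without DRG replicate 2, DRG replicate 3 or SC replicate 2 (0.053 to 0.0536). Reln differed by -0.60, or -1.09 on quantile-normalized and -0.96 on unscaled values, and was not called with the mean of its probe sets, at -0.20 (limma adjusted p = 0.593). Of 8 genes of choroid plexus and meninges, 4 passed toward DRG and 0 toward SC. They were Cdh1, at least 10.4-fold, Slc13a4, at least 1.33-fold, Foxc1, at least 1.37-fold, and Crabp2, at 2.52 with 1 DRG array above the level. The choroid plexus genes Ttr, Kl, Folr1 and Kcne2 were not called, with differences of 0.13, -0.435, -0.13 and -0.58. On unscaled values Kl was called toward SC, at -0.70 (limma adjusted p = 0.0455). The list's summed signals were 2625 to 2985 in DRG against 358 to 584 in SC, and Cdh1 alone had a DRG mean of 1963.

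**Figure D4:**
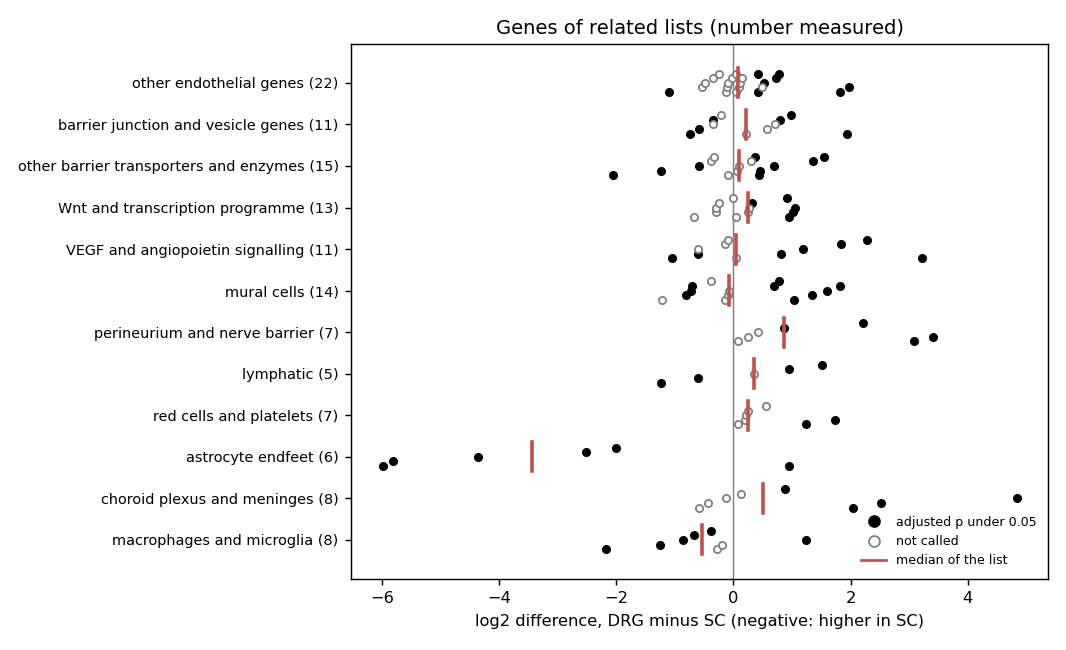
Log2 difference DRG minus SC on the deposited scaling of each measured gene of the 12 lists (filled where called) with the median of each list as a bar. The astrocyte endfoot genes have a median of -3.44, the perineurial genes one of 0.85, and the other endothelial genes lie around a median of 0.07.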

How the data were processed

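Expression was measured on 6 arrays, 3 of DRG and 3 of SC, each of a pool of 4 mice. Per the submitters' processing notes, MAS5 was the tool. The deposited values were linear ratios, and how the authors made them is not given in the sources used here. From the values, a ratio was taken as the signal over a factor for its array and over the probe set's median, which was 1 in 91.8% of probe sets. Signals were recovered as whole steps of 0.1 for 45095 of 45101 probe sets (98.6% exact on 45095 simulated probe sets, the rest, 1.42%, off by a factor common to the 6 arrays), and the other 6 were left out, as were 64 controls. A factor common to all arrays moves levels far more than differences. The deposited array scaling was kept. Signals carry no detection call, and the number of arrays limits the precision. With the same arrays, the SE of member probe sets ran from 0.08 (Slc2a1, 1434773_a_at) to 0.34 (Ocln, 1448873_at), so precision also differed between probe sets. The platform annotation gave a probe set 1 gene, several genes (932) or none (9160), and RefSeq (GRCm38.p6) changed no symbol. The files name no genome build.

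The log2(signal + 16) values were tested with limma 3.58.1 (R 4.3.3; lmFit and eBayes with intensity trend, two-sided, Benjamini-Hochberg over 45031 probe sets), tested first on simulated data. A gene was represented by its brightest single-gene probe set. The level of genes not expected came from 33 measured genes of a list of 38 (46 probe sets) and a fold against a tissue at or under it on all 3 arrays is a lower bound; otherwise folds come from mean log2 signals. Folds are left out where neither tissue exceeds that level or where the bound does not exceed 1. All folds and lower bounds hold for the deposited scaling and were not computed on the other scalings. Whether same-numbered arrays were paired is not stated, and p-values measure the spread between pools. Named genes were all members, the called genes furthest from 0 in each list (at most 3, and at most 2 of the other sign), and the 3 nearest to Cdh5 and to Slco1c1; other list genes were named after their values were seen. The members and lists were chosen with earlier results of these data known. Alternatives were the pseudocount (1 and 64), scaling, the deposited ratio, a signal filter, no trend, a replicate block, single arrays left out and other probe set choices. Recovery ran in Python 3.11.15 with numba 0.67.0 and numpy 2.4.6, tables were made with pandas 2.3.3, and plots with matplotlib 3.10.9.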

Additional observations from a re-analysis of the deposited data

How the results depend on the processing

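Over 15 alternatives for probe sets and 17 for genes, the number of member probe sets called was 6 to 9 (9 as reported) and that of member genes 5 to 6 (6 as reported). Before the array scaling, 1 member probe set and 1 member gene were called higher in DRG, and over all genes 3507 passed toward DRG and 3584 toward SC, against 5785 and 1764 as reported. After quantile normalization the numbers over all genes were 3728 and 2912. Without probe sets of the types _s_at, _x_at and _a_at, 3 member probe sets were called higher in SC, because 2 of Slc2a1 and 1 of Flt1 are of these types. Leaving out any 1 array gave 9 member probe sets and 6 member genes each time, and 6694 to 7449 genes in all. The deviations of same-numbered arrays were not correlated (-0.01, -0.02 and 0.00 for numbers 1, 2 and 3), so a pairing by number was not seen, though shared mice are not excluded by this. A replicate block gave 9 member probe sets, 6 member genes and 7386 genes in all, and it changed no call of a member. Of the members, Esam and Cdh5 lost and Kdr and a second probe set of Flt1 gained a call with the scaling, as given above, and no called member changed sign under these alternatives. The signals of Pecam1 and Ocln, under the level of genes not expected on all arrays, limit what can be said of them.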
